A study of Mus musculus with 24 samples.

Results

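The genes described here are 38 ribosome assembly and nucleolar factors, chosen by name from what their proteins do and read from the rows of the count table that carry their symbols. They are 38 of the 49585 gene rows, and all 38 were found. The study profiled single BFU-E (burst-forming units-erythroid), the earliest progenitors restricted to making red cells, from fetal liver of C57/Bl6J mice at embryonic day 14.5. There is 1 group of 24 cells on 1 plate, and the labels do not tie cells to embryos, so the cells are treated as 1 sample and carry no test, p-value or standard error. Red cells were lysed, and magnetic beads removed cells that bound antibodies to the blood lineage antigens CD45R, CD3e, CD11b, Ly-6G and Ter119 or to CD41, CD16/32 and Sca-1. The rest were sorted after staining for CD24, CD71 and CD117, 1 cell to a well, and libraries were made by Smart-seq2, a full-length method for polyadenylated RNA whose PCR copies carry no molecular identifier. The sort gates are not stated in the sources used here. Values are mean ± SD over the 24 cells unless stated otherwise.

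Ribosomes are built in the nucleolus. RNA polymerase I transcribes the ribosomal DNA there, small nucleolar ribonucleoproteins (snoRNPs) methylate or isomerise chosen bases of the transcript, and large sets of assembly factors fold and cut it into a small and a large subunit. Genes for these factors are among the well-known targets of the transcription factor Myc, and inherited defects of ribosome production are known for causing failure of red cell formation.

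Total counts per cell ran from 876983 to 2155010, with 4767 to 7349 genes detected, where detected means at least 5 counts. Levels are in CPM, counts scaled by the total of the cell. Where a gene had 0 counts, up to 3 counts remain possible, or 1.39 to 3.42 CPM depending on the cell, and this floor covers counting error only. All 11 genes listed for erythroid progenitors passed detection in 12 or more cells, with a summed level of 443 to 5072 CPM. The same threshold was passed by 2 of 10 mature red cell, 1 of 7 myeloid, 2 of 8 megakaryocyte and 1 of 8 hepatocyte markers. Klf1, which is among the 11, was under 10 CPM in cells 1, 9, 19, 23 and 24. Elane, Cebpe, Ms4a3, Pf4, Ppbp and Serpina1a reached 5 counts in none of the cells. Summed myeloid markers ran from 0 to 9234 CPM, highest in cell 1, summed megakaryocyte markers from 16.04 to 1755 CPM, highest in cell 12, and summed hepatocyte markers from 3.71 to 1356 CPM, highest in cell 10. Cells 19, 3 and 23 stood apart from the rest in the genes described here. Correlations are over all 24 cells unless stated, and many are also given without these 3.

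Promoter windows are shown for 8 of these genes because Myc binds the letters CACGTG, the E-box, and the related letters CACGCG, and because the relation to Myc is a main measurement below. RefSeq promoters of 250 bases before to 50 after the start, on build GRCm38.p6, were found for 33 of the 38 genes and not for Fbl, Npm1, Rrp12, Bop1 and Rrs1. CACGTG, which reads the same on both strands, was in 6 of the 33 (18.2%), against 8.09% of 27025 genes with a promoter and 13.8% of the 4634 that were detected in at least 12 cells. CACGCG, searched on both strands, was in 11 of 33 (33.3%), against 10.5% and 22.1%. All 6 CACGTG windows are printed, then the CACGCG windows of the pair of genes that also passed the threshold for Myc. Each is a window of 30 bases, 5′ to 3′ on the gene's own strand, with the motif in capitals.
Utp20, chr10:88826765-88826794, minus strand: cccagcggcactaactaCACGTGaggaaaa
Wdr43, chr17:71616220-71616249, plus strand: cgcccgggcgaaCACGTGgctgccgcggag
Ltv1, chr10:13193092-13193121, minus strand: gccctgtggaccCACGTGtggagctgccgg
Tsr1, chr11:74898092-74898121, plus strand: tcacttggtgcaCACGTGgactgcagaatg
Pes1, chr11:3963965-3963994, plus strand: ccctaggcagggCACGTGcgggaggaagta
Nop2, chr6:125131811-125131840, plus strand: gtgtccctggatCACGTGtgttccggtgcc
Nop10, chr2:112261938-112261967, plus strand: aggttgttggcgCACGCGattgaagcggcg
Ddx21, chr10:62602249-62602278, minus strand: tgtcgccctctctcctagCACGCGgttgag

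The E-box lay after the annotated start in 5 of the 6 genes, 3 to 38 bases downstream, and 60 bases upstream of it in Nop2. Of the 6 genes 4 belong to the small subunit set and the other two to the large subunit set. The 2 motifs did not overlap each other in any of these promoters. The letters CCGGAAGT, bound by ETS factors, were in 8 of 33 promoters (24.2%) against 4.31% of all genes and 13.3% of detected genes, and the motif searched for NRF1 was in 0 of 33 against 1.07% and 3.02%. The detected genes as a class held more of these motifs than all genes, so the second share is the nearer background. A match describes letters in a window and not a bound site.

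Most of the assembly genes were detected in most cells. Detection reached 12 or more cells for 37 of the 38 and all 24 cells for 16, where the shares over 16184 genes with any count were 36.8% and 7.61%. A cell had a median of 35 of the 38 detected, with all 38 in cells 1, 7 and 15 and 25 in cell 19. Together they took 1.47% ± 0.318 of a cell's counts, from 0.709% in cell 19 to 1.95% in cell 11, and 0.866% ± 0.199 without Npm1 and Ncl. Per kilobase of exon their median level was 62.8 CPM, against 18.8 for all genes detected in at least 12 cells. The step medians of these members differed. On the same scale they were 25.6 for RNA polymerase I, 35.9 for the small subunit and 77.3 for the large subunit. They were 120 for snoRNPs and 209 for 3 nucleolar proteins that act at several steps. Per kilobase of coding sequence they came in the same order. Single genes overlapped widely, with exon values of 4.56 to 69.7, 4.45 to 178, 3.73 to 132, 25.8 to 574 and 34.7 to 1454 for the steps as listed.

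**Figure D1:**
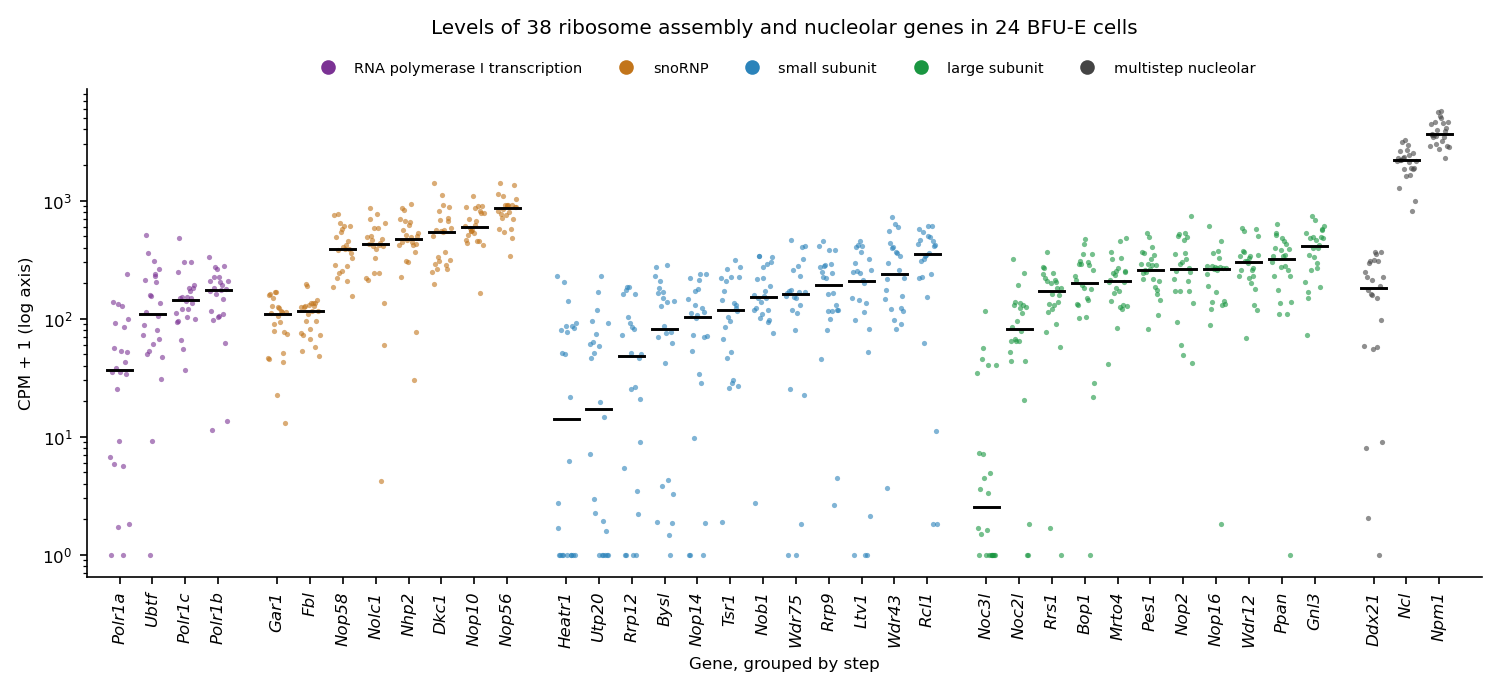
Level of each of the 38 genes (CPM + 1, log axis) in each of the 24 cells, grouped and coloured by step, with a black bar at the median. Npm1 and Ncl sit above all others in CPM, and the small subunit genes show the most cells near 0.

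Of the 3 multistep proteins, Npm1 and Ncl had the highest CPM and the lowest coefficients of variation among the members, and Ddx21 did not share this. Npm1 encodes nucleophosmin, a histone and ribosome chaperone of the nucleolus (ENSMUSG00000057113, GRCm38 chromosome 11, 33152287 to 33163206). It ran from 2297 CPM in cell 19 through a median of 3656 to 5749 in cell 14, and averaged 3876 ± 948 CPM. Ncl, nucleolin, binds nascent ribosomal RNA (chromosome 1, 86344719 to 86359400) and ran from 807 CPM in cell 19 through 2188 to 3279 in cell 11. Their coefficients of variation over cells were 0.245 and 0.284, against a median of 0.549 over all members. For their level they were not the steadiest. Relative to the trend of variance on mean level described below, Npm1 and Ncl lay above it, with residuals of 0.54 and 0.42. Npm1 has near-identical pseudogene copies, and the sources used here do not say how reads that match several places were counted, so its level is uncertain. Ddx21, an RNA helicase that joins polymerase I transcription to processing, was lower, with 0 counts in cell 19, a median of 181 CPM and 363 in cell 14. It was detected in 22 cells, with a coefficient of variation of 0.684.

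Polymerase I genes were present but modest. Polr1b, the second largest subunit, was detected in 24 cells and ran from 10.4 CPM in cell 5 through 175 to 330 in cell 1. Polr1c, a subunit shared with RNA polymerase III, was also in 24 cells, from 35.3 CPM in cell 12 through 144 to 483 in cell 5. Both reached every cell, and their lowest and highest cells were different. Polr1a, the largest subunit, was detected in 20 cells with a median of 35.9 CPM and a maximum of 239 in cell 21. Ubtf, the factor that keeps ribosomal DNA open and recruits the polymerase, was in 23 cells with a median of 108 CPM and a maximum of 512 in cell 5.

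The snoRNP genes were the most evenly detected step: 7 of 8 were in all 24 cells, and 1 of 192 gene-by-cell values (0.521%) was under 5 counts. Box H/ACA particles turn uridine into pseudouridine, and their 4 core genes had a median of 281 CPM per kilobase of exon. Nop10, their smallest core protein, ran from 163 CPM in cell 19 through 596 to 1093 in cell 11. Dkc1, the pseudouridine synthase itself, ran from 197 CPM in cell 3 through 545 to 1410 in cell 4. Nhp2, an RNA-binding core protein (chromosome 11, 51619735 to 51623714), ran from 29.2 CPM in cell 19 through 474 to 937 in cell 15. Gar1, which helps substrate turn over (chromosome 3, 129824912 to 129831396), was lower, from 12.2 CPM in cell 22 through 108 to 166 in cell 11. Box C/D particles methylate ribose, and their 3 core genes were unequal. Nop56 ran from 341 CPM in cell 16 through 866 to 1404 in cell 4, and Nop58 from 154 in cell 23 through 390 to 773 in cell 6. Fbl, the methyltransferase fibrillarin, ran from 46.8 CPM in cell 23 through 115 to 197 in cell 8. Per kilobase of coding sequence the 3 genes stood at 485, 311 and 111 CPM, with Fbl lowest on the exon scale as well. Nolc1, a chaperone of both particle types, ran from 3.24 CPM in cell 19 through 426 to 871 in cell 6.

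Small subunit genes were the least evenly detected: 0 of 12 reached all 24 cells, and 51 of their 288 gene-by-cell values (17.7%) were under 5 counts, where 80 of 912 (8.77%) were over all members. Rcl1, a processing factor, was the highest per kilobase of exon at 178 CPM, and ran from 0.810 CPM in cell 19 through 354 to 611 in cell 13. Wdr43, a subunit of the early processome that pairs with the nascent transcript, ran from 2.64 CPM in cell 3 through 239 to 730 in cell 10. Among late-acting factors, Ltv1, an export and maturation factor, had a median of 206 CPM, the nuclease Nob1 152, and Tsr1, a GTPase-like factor, 118. All 3 were under the floor in cell 3, at 0, 1.76 and 0.8804 CPM, and Ltv1 was also at 0 in cells 17 and 19. Rrp9, which binds the U3 snoRNA, had a median of 192 CPM in 22 cells, the processome subunit Wdr75 159 in 21, Nop14 103 in 20, the late factor Bysl 81.3 in 18 and the export factor Rrp12 47.5 in 18. The largest scaffold proteins had the fewest detections, with Heatr1 in 13 cells at a median of 13.01 CPM and Utp20 in 14 at 16.3. These are long transcripts, and at 6.39 and 4.45 CPM per kilobase of exon they were also among the lowest by length.

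Large subunit genes lay between, with 5 of 11 in all 24 cells. Pes1, Bop1 and Wdr12 form the PeBoW complex, needed to process the large subunit RNA. Pes1 ran from 80.4 CPM in cell 9 through 259 to 530 in cell 8, and Wdr12 from 67.6 in cell 9 through 298 to 581 in cell 4. Bop1 (ENSMUSG00000022557, chromosome 15, 76452989 to 76477277) had 0 counts in cell 19, a median of 200.4 CPM and 469 in cell 13. Nop2, a methyltransferase for the large subunit RNA, ran from 41.05 CPM in cell 23 through 260 to 737 in cell 22. Gnl3, the nucleolar GTPase nucleostemin, ran from 71.3 CPM in cell 3 through 410 to 740 in cell 9. Mrto4, which holds the place of the stalk protein, ran from 40.4 CPM in cell 1 through 207 to 477 in cell 23, and was highest in a cell where most other members were low. Ppan, Nop16 and Rrs1, early or middle factors of the same subunit, had medians of 318, 263 and 171 CPM, each in 22 or 23 cells. Noc2l was in 21 cells at a median of 80.4 CPM. Its family member Noc3l was in 11, at a median of 1.51 CPM and a maximum of 116 in cell 11, and is left out of all correlations below.

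The median coefficient of variation was 0.549 for members and 0.855 for all genes detected in at least 12 cells, which also had lower levels. Relative to a trend of variance on mean level, 15 of 37 members (40.5%) lay below the trend, against 51.6% of 5962 genes. Over the members found in all 24 cells the median coefficient of variation was 0.445, against 0.432 for the 1231 such genes. Within the set, Fbl and Gar1 lay furthest below the trend and Ltv1 and Rcl1 furthest above it. A snoRNA lies within 8 of the 38 genes (21.1%), against 2.58% of detected protein-coding genes, with 5 in Nop56, 4 in Nop58, 3 each in Wdr43, Gnl3 and Ncl, and 1 or 2 in Dkc1, Tsr1 and Ppan. The libraries carry no strand, and 15 members overlap a gene on the other strand, Nop56, Bysl, Gnl3, Nhp2 and Bop1 among them, so reads of the overlap cannot be told apart.

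The members varied together across cells, though loosely. Over 666 pairs the mean Spearman rho was 0.15, against 0.0089 over all 17769741 pairs of genes, and 509 member pairs (76.4%) had a rho above 0, against 51.7%. Pairs with rho of at least 0.4 made up 13.2% of member pairs (88) and 3.54% of all pairs, and pairs at -0.4 or less 0.901% (6) and 2.96%. Over genes found in all 24 cells the mean was 0.19 for members and 0.0080 for all. Without cells 3, 19 and 23 the mean over member pairs fell to 0.0816, against 0.0024, and 59 pairs reached 0.4. With total counts and genes detected regressed out of the ranks it was 0.0931, against 0.0035. Each such rho is over 24 cells that share a plate and the same scaling.

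**Figure D2:**
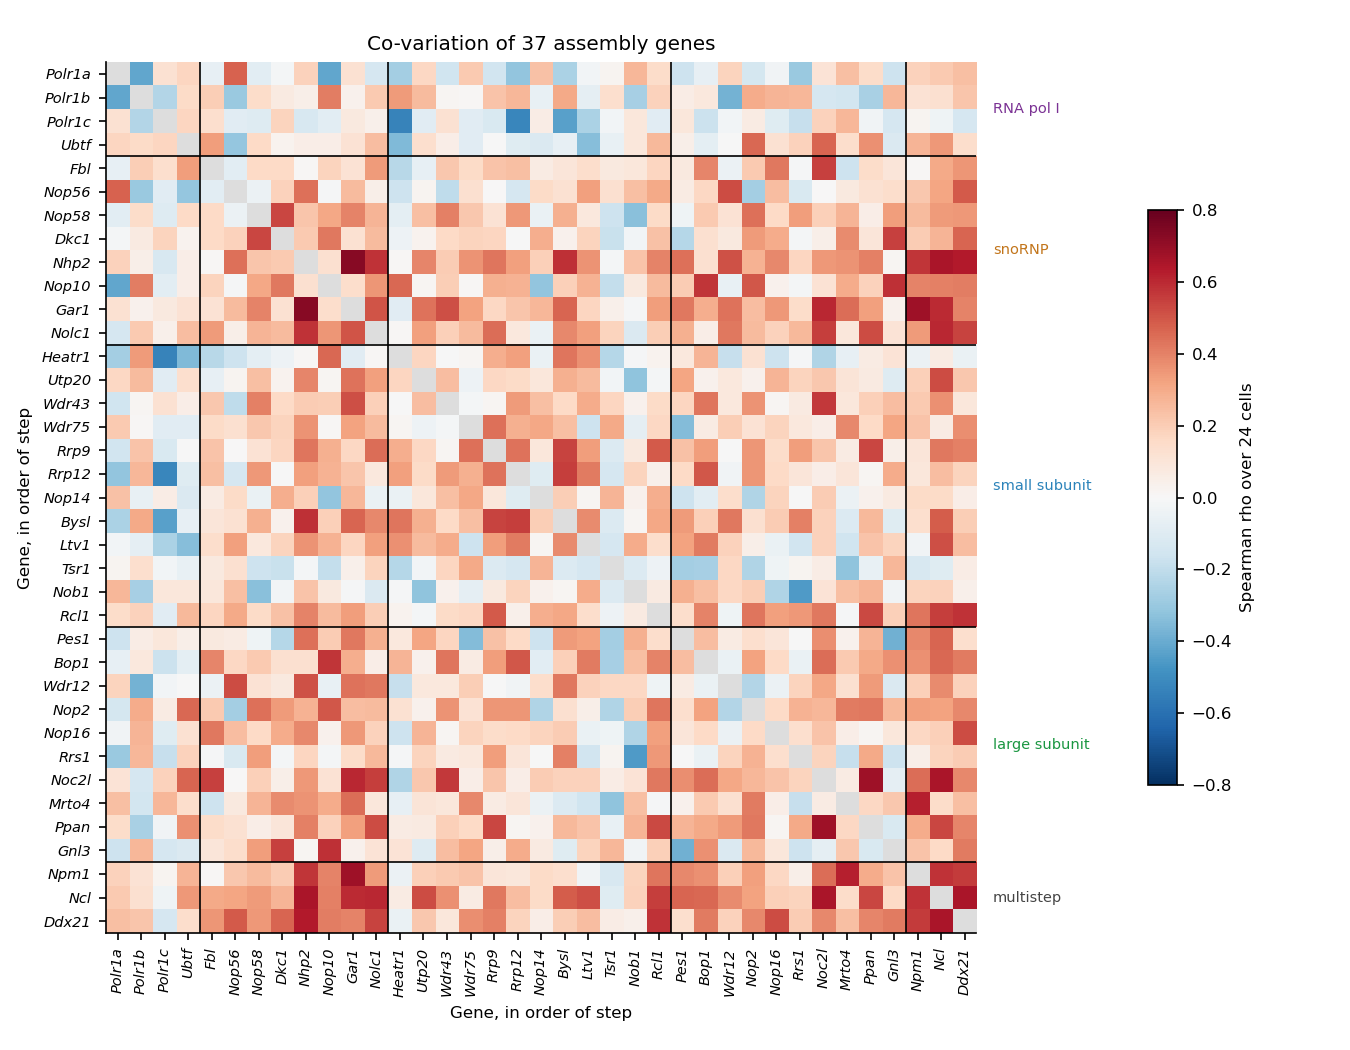
Spearman rho over 24 cells for each pair of the 37 genes detected in at least 12 cells, ordered by step, with black lines between steps. Red cells of the map fill the rows of Nhp2, Gar1, Noc2l, Npm1, Ncl and Ddx21, and the RNA polymerase I rows hold most of the blue.

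Partners in the same particle did not always move together. Among box H/ACA genes Nhp2 and Gar1 had the highest rho of all member pairs, 0.73. It ran from 0.69 to 0.78 as each cell was left out and was 0.65 without cells 3, 19 and 23. Dkc1 and Nop10 stood at 0.42, or 0.26 without cells 3, 19 and 23, while the other 4 pairs of that particle were between 0.12 and 0.21. The 3 box C/D pairs were between -0.08 and 0.16. Within the PeBoW complex Pes1 and Bop1 had 0.25, Pes1 and Wdr12 0.07, and Bop1 and Wdr12 -0.06. The 2 largest polymerase I subunits, Polr1a and Polr1b, had -0.41, between -0.49 and -0.34 as each cell was left out. Across particles, Gar1 with Npm1 and Noc2l with Ppan had 0.68, and Ncl had 0.65 with each of Noc2l, Nhp2 and Ddx21. Gar1 with Npm1 kept 0.68 without cells 3, 19 and 23, while Noc2l with Ppan fell to 0.58. Ncl then had 0.53 with Noc2l, 0.62 with Nhp2 and 0.52 with Ddx21. The 3 multistep proteins had a mean of 0.60, the snoRNP genes 0.25, small and large subunit genes 0.14 each, and polymerase I genes -0.0046. Without cells 3, 19 and 23 the means were 0.62, 0.11, 0.052, 0.097 and 0.029 for multistep, snoRNP, small subunit, large subunit and polymerase I genes.

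A step score, the mean over its genes of the z-score of log2(CPM + 1), gave the same picture between steps. The snoRNP score followed the multistep score with rho 0.88 and the large subunit score with 0.71. The large subunit and multistep scores had 0.79, and the small subunit score had 0.48 to 0.60 with those 3. The polymerase I score had rho between -0.10 and 0.25 with the other four. Without cells 3, 19 and 23 the snoRNP score had 0.78 with the multistep and 0.59 with the large subunit score, the large subunit and multistep scores had 0.67, and the small subunit score had 0.28 to 0.40 with those 3.

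The score over all 37 genes, called the assembly score below, separated 3 cells from the others. It was -1.31 in cell 19, -0.93 in cell 3 and -0.81 in cell 23, then -0.40 in cell 12, and its highest values were 0.52 in cell 11 and 0.48 in cells 7 and 13. The 3 low cells also had the fewest genes detected, 4800, 5013 and 4767, and 25, 29 and 29 of the members. These 3 were the lowest of all cells in the snoRNP, small subunit and multistep scores. They differed in the large subunit and polymerase I scores. Cell 19 was lowest in the multistep score (-2.52) and the snoRNP score (-1.96) and stood at 0.49 for polymerase I. Cell 3 was lowest in the small subunit score (-1.75), where 8 of its 9 missing members belong, and stood at -0.31 for the large subunit. Cell 23 was at -1.19 for the large subunit, close to cell 19 at -1.18. Summed erythroid progenitor markers were lowest in cell 19 and highest in cell 3. Summed myeloid markers were 275 CPM in cell 19, 320 in cell 3 and 2708 in cell 23, against a median of 20.1. For summed megakaryocyte markers the same cells had 193, 1073 and 485 CPM, against a median of 270. Across cells the assembly score had rho 0.62 with genes detected, 0.45 with total counts and 0.60 with Klf1. Leaving out cells 3, 19 and 23 gave 0.44, 0.24 and 0.54. A score of the 11 erythroid progenitor markers, which include Klf1, had 0.11, and their summed level 0.03. Summed mature red cell markers had 0.44. An S phase score had 0.50, summed S phase markers 0.33 and a G2/M score 0.31. Summed myeloid markers had -0.38 and summed megakaryocyte markers -0.40. The part of these in the score was not tested.

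The relation to Myc, the transcription factor known to drive growth genes, was positive for most members. Myc was detected in 24 cells, from 76.4 CPM in cell 23 through 822 to 1755 in cell 3, and averaged 845 ± 447 CPM. Of 37 members 31 had a positive rho to Myc, where the background is 59.2% of 5961 genes, and the median was 0.24 against 0.06. The Spearman coefficient was at least 0.4 for 7 of 37 (18.9%), against 7.55% of genes. The 7 were Bop1 at 0.55, Ncl at 0.52, Npm1 and Ddx21 at 0.49, Rrs1 and Nop10 at 0.45 and Rrp9 at 0.41, so all 3 multistep proteins are in it. At -0.4 or less stood Tsr1 alone, at -0.43, against 3.34% of genes. Of the promoters described above, 0 of the 6 with CACGTG and 2 of the 11 with CACGCG belong to genes that passed 0.4. Ncl and Rrp9 also passed and hold neither motif, and so few genes cannot set the motifs apart. The median rho was 0.19 with CACGTG and 0.22 without it, and 0.33 with CACGCG and 0.17 without it. Bop1, Npm1 and Rrs1, which also passed, had no promoter and are in neither group.

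**Figure D3:**
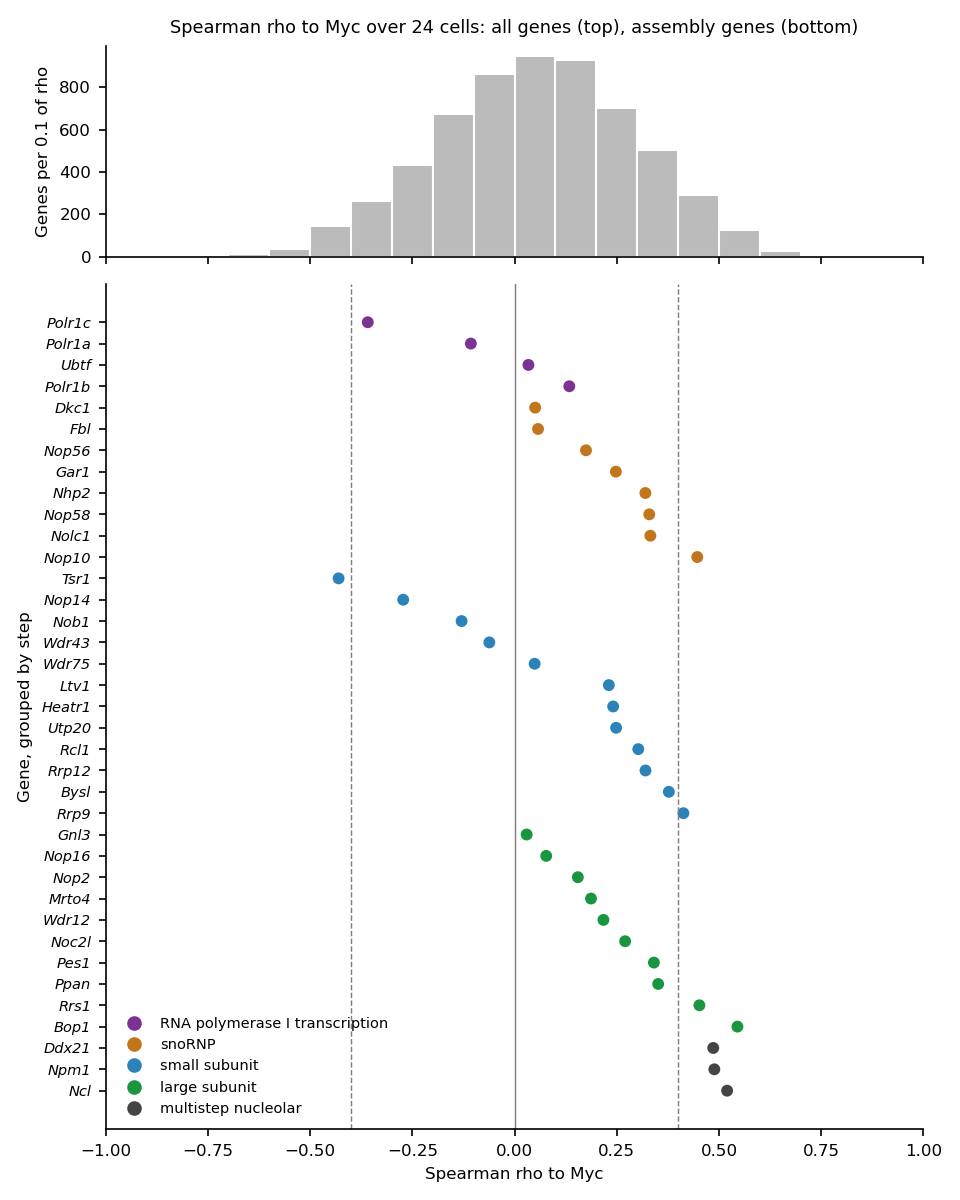
Spearman rho to Myc over 24 cells, as a histogram of all genes detected in at least 12 cells (top, genes per 0.1 of rho) and for each of 37 assembly genes by step (bottom), with dashed lines at 0.4 and -0.4. The 3 multistep genes all lie right of 0.4, and 4 RNA polymerase I genes lie between -0.36 and 0.13.

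By step, the score had rho to Myc of 0.61 for the large subunit, 0.58 for multistep proteins, 0.52 for snoRNPs, 0.35 for the small subunit and -0.07 for polymerase I. The order of the first 3 changed with the cells: without cell 3 they were 0.73, 0.78 and 0.69, and without the 5 cells low in Klf1, those under 10 CPM, 0.45, 0.44 and 0.48. The small subunit had rho 0.52 without cell 3 and 0.29 without the 5 cells low in Klf1. Its Pearson r was 0.34 over all cells, 0.67 without cell 3 and 0.0073 without the 5 cells low in Klf1. Polr1c had -0.36, and the small subunit genes Nop14 and Nob1 had -0.27 and -0.13, so the small subunit step held both signs. Members that host a snoRNA had a median rho of 0.11 (8 genes) and the others 0.25 (29 genes).

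The assembly score and Myc had rho 0.59 and Pearson r 0.59. Cell 3, the highest in Myc and the second lowest in score, lies far from the rest, and without it rho was 0.77 and 13 members (35.1%) passed 0.4, against 9.55% of genes. Cells 19 and 23 are low in both. Without them, which are the 2 cells farthest from the median of Myc on the log scale, rho was 0.48 and 3 members (8.11%) passed, against 4.81% of genes. Over 8 cells each, the plate columns gave 0.81, 0.81 and 0.00 with this score. With the score rebuilt within each column they gave 0.88, 0.74 and 0.00. The third, which holds cell 3, gave 0.54 without it by the rebuilt score. With total counts and genes detected regressed out of the ranks rho was 0.49, and Bop1 (0.44), Npm1 (0.42) and Ncl (0.41) passed, which is 8.11% of members against 6.12% of genes. Myc itself had rho 0.41 with genes detected.

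**Figure D4:**
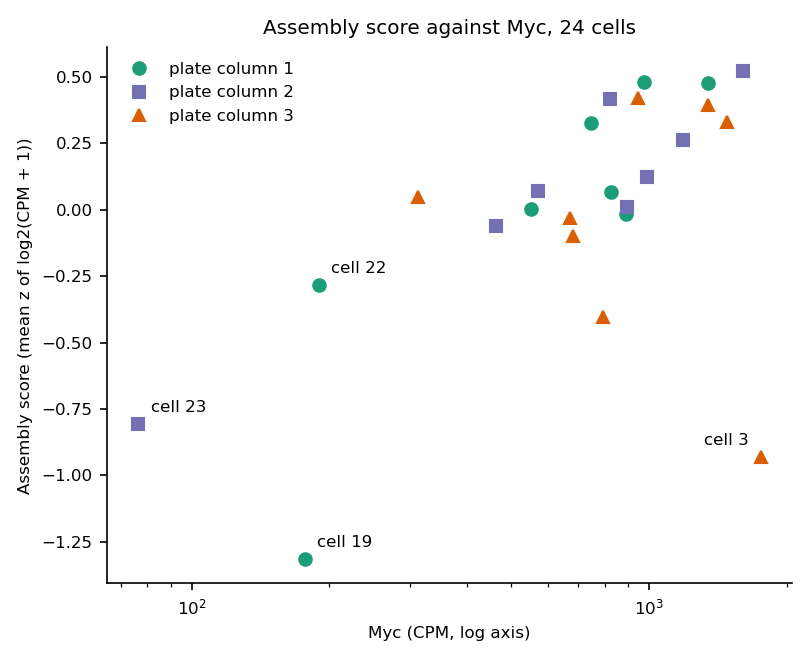
Assembly score (mean z-score of log2(CPM + 1) over 37 genes) against Myc (CPM, log axis), 1 point per cell, with shape and colour for the plate column. Cell 3 has the highest Myc, 1755 CPM, and a score of -0.93, and cells 19 and 23 lie low on both axes.

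The wider pathway varied with the members. Of 105 other assembly factors 99 were detected in at least 12 cells, and 14 of them (14.1%) had rho to Myc of at least 0.4 and 0 had -0.4 or less, against 7.55% and 3.34% of genes. The first share was near or under its background without some cells: 6 genes (6.06%) against 6.02% without cell 19, 2 (2.02%) against 4.81% without cells 19 and 23, and 1 of 99 against 5.52% without the 5 cells low in Klf1. Their score had rho 0.89 with the assembly score, or 0.86 without cells 3, 19 and 23. It had 0.57 with Myc, and the mean pair rho of these genes was 0.090. Per kilobase of exon the highest for polymerase I were Polr1d, a subunit shared with RNA polymerase III (80.3 CPM), and the subunit Znrd1 (43.2), with rho to Myc of 0.48 for Znrd1. For snoRNP assembly they were the paired ATPases Ruvbl2 (177) and Ruvbl1 (151). For the small subunit they were the processome proteins Fcf1 (198, with rho to Myc of 0.48) and Imp3 (164), and for the large subunit Rsl1d1 (219) and Nifk (190). The middle-ranked small subunit genes of this list stood at 29.3 (Nol11) and 28.7 (Rrp36). Those of the large subunit stood at 25.4 (Rrp8) and 23.8 (Lsg1), so the higher large subunit level of the members was not shared here.

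The 2 kinds of ribosomal protein genes differed in their relation to the score. Mitochondrial ribosomal proteins, which serve the separate ribosome of that organelle, had a score with rho 0.90 and r 0.94 to the assembly score. Among 77 of them, 12 (15.6%) had rho to Myc of at least 0.4 and 0 had -0.4 or less, against 7.55% and 3.34% of genes. Cytosolic ribosomal proteins, the structural parts of the particle these factors build, had a score with rho -0.16 and r -0.11 to the assembly score. Their own mean pair rho was 0.15, close to that of the members. Of 81 such genes 8 (9.88%) had rho to Myc of at least 0.4 and 2 had -0.4 or less, beside the same shares of genes. Their median rho to Myc was 0.0087, against 0.06 for all genes. Within the third plate column the rho of cytosolic and assembly scores turned to 0.14 without cell 3, and with TMM scaling of all cells it was -0.02, so its sign turned in 1 of these settings. The mitochondrial value was 0.87 to 0.92 as each cell was left out, 0.81 without cells 3, 19 and 23, and 0.46 in the third plate column without cell 3.

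**Figure D5:**
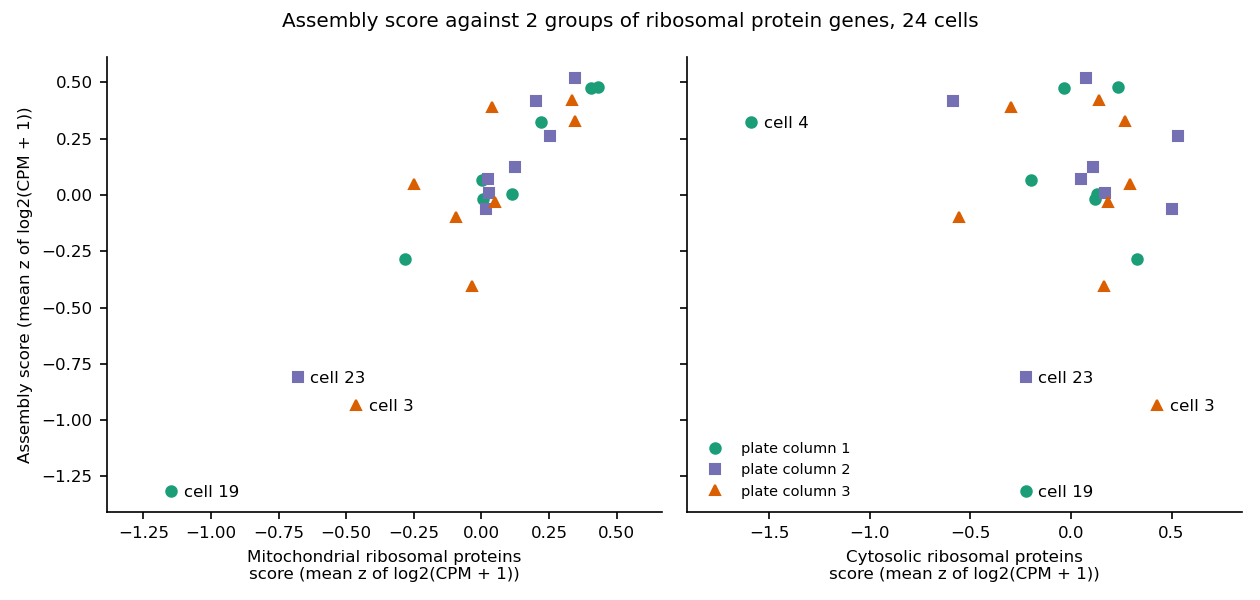
Assembly score against the score of mitochondrial (left) and cytosolic (right) ribosomal protein genes, all as mean z-scores of log2(CPM + 1), 1 point per cell, with shape and colour for the plate column. Points rise along a line on the left, and on the right cell 3 is low in assembly score and cell 4 low in cytosolic ribosomal proteins.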

How the data were processed

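Reads of 24 single cells were counted per gene by the authors, and the deposited table holds raw counts, 1 column per cell, used as deposited. The submitters' processing notes name STAR 2.4, featureCounts and the build GRCm38, and libraries were not stranded per the labels' protocols. Which annotation release and counting options were used, and whether cells were filtered, is not stated in the sources used here. Symbols, coordinates and lengths came from GENCODE M21, where 49326 of 49585 identifiers matched. No pair of columns was identical.

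CPM is the count divided by the cell's total over all rows, and correlations used log2(CPM + 1) of 5962 genes detected in at least 12 cells. Lengths are merged exons, with coding sequence as the alternative. The plate columns of 8 cells come from the wells in the labels. The threshold of 0.4 for rho is a description and not a test. The 5 cells with Klf1 under 10 CPM and cells left out by Myc or score were defined from the data. The variance trend was a lowess with a span of 0.3. Python 3.11.15, numpy 2.4.6, pandas 2.3.3, scipy 1.17.1, statsmodels 0.14.6, R 4.3.3 and edgeR 4.0.16, for TMM factors only, were used, and the statistics were tested on simulated data.

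The members, lists and thresholds were chosen with earlier results of these data known. The text names all members, Myc, the 2 highest genes per step of the wider pathway per kilobase and the 10 genes most like the score; others were named after their values were seen. The symbol Riok2 was not matched to a row, and protein features were not analysed here.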

Additional observations from a re-analysis of the deposited data

How the results depend on the processing

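All alternatives describe the same 24 cells, and depth limits the lowest genes, where 3 counts are up to 3.42 CPM. Where cells were left out or columns taken alone, scores were rebuilt over the cells used. Co-variation stayed above 0 under every alternative run, at 0.12 to 0.16 as each cell was left out, but was 0.0931 with depth regressed out, 0.0937 in the second plate column and 0.0816 without cells 3, 19 and 23. The rho of assembly score and Myc was 0.52 (without cell 19) to 0.77 (without cell 3), 0.49 with total counts and genes detected regressed out, 0.48 without the 2 cells farthest from the median of Myc, 0.88, 0.74 and 0.00 in the plate columns and, in alternatives chosen after seeing the data, 0.75 without the 2 farthest in CPM and 0.71 without cells 3, 19 and 23. As each cell was left out, members with rho to Myc of at least 0.4 numbered 4 (without cell 23, 10.8%, background 6.54%) to 13 (without cell 3, 35.1%, background 9.55%). They numbered 3 over genes in all 24 cells (18.8%, background 9.51%), 3 with depth regressed out (8.11%, background 6.12%) and 4 without the 5 cells low in Klf1 (10.8%, 5.52%). Without the 2 farthest cells they numbered 3 (8.11%, 4.81%), or 12 with those cells chosen by CPM (32.4%, 9.61%), and with Pearson r 15 (40.5%, 15.5%). The plate columns gave 21, 19 and 4 (56.8, 51.4 and 10.8%, against 25.7, 21.1 and 18.2%, so under the background in the third). The third without cell 3 gave 13 (35.1%, 21.6%). Other pathway genes past 0.4 numbered 6 (without cell 19, 6.06%, background 6.02%) to 17 (without cell 3, 17.2%, background 9.55%) as each cell was left out. They numbered 2 over genes in all 24 cells (10.5%, 9.51%), 7 with depth regressed out (7.07%, 6.12%) and 29 with Pearson r (29.3%, 15.5%). They numbered 43 and 30 in the first 2 columns (43.4 and 30.3%, against 25.7 and 21.1%) and 25 in the third without cell 3 (25.3%, 21.6%). They were near or under the background with 6 without cell 19 (6.06%, 6.02%), 1 without the 5 cells low in Klf1 (1 of 99, 5.52%), 2 without the 2 farthest (2.02%, 4.81%) and 6 without cells 3, 19 and 23 (6.06%, 6.53%). The rho with cytosolic ribosomal proteins was -0.28 (without cell 19) to -0.094 (without cell 14), -0.02 with TMM scaling, -0.42 without the 5 cells low in Klf1, -0.33 without the 2 farthest, -0.024 in the first column and 0.14, reversed, in the third without cell 3. That with mitochondrial ribosomal proteins was 0.87 to 0.92, 0.72 over genes in all 24 cells and 0.46 in the third column without cell 3. The share of counts was 0.866% without Npm1 and Ncl. The cause of these changes was not tested. No paired analysis was possible because there is 1 group.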

Other observations

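Outside the assembly and ribosomal protein lists, the 10 genes most like the assembly score by Spearman rho over the 24 cells were Tomm5, part of the import channel of the outer mitochondrial membrane (0.87), the cytosolic chaperone Hsp90aa1 (0.87), Cinp (0.80), C1qbp, a protein of the mitochondrial matrix (0.80), the mitochondrial chaperonin Hspd1 (0.79), Timm23, the import channel of the inner membrane (0.79), the cyclin Ccne1 (0.78), the RNA-binding protein Ybx1 (0.78), the prohibitin Phb2 (0.78) and the phosphatase Ppm1g (0.77). Their rho to Myc ran from 0.38 for Cinp to 0.71 for Hsp90aa1, which was expressed at 2220 ± 683 CPM. Among all 5925 genes outside the members 11.3% had rho to the score of at least 0.4. These 10 were taken from the top of that ranking, so their values are a description, and the cells share depth and plate.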
